A study of Mus musculus with 6 samples.

Results

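The genes described here are 9 regulators and outputs of hair differentiation, chosen by symbol from the 24453 genes counted in the series. They are the transcription factor genes Gata3, Cux1, Trps1, Foxn1, Foxq1, Ovol1 and Elf5, the vitamin D receptor gene Vdr, and Tchh, which encodes trichohyalin. All 9 were present in the count tables, and 8 had enough reads for the test; Elf5 did not. RNA was sequenced from hair follicle cells sorted from newborn (postnatal day 0) mouse back skin, 3 control libraries and 3 libraries of genotype Ring1a-/- Ring1b-/I53A, called mutants below. Ring1a, encoded by Ring1, and Ring1b, encoded by Rnf2, are the ubiquitin ligases of Polycomb repressive complex 1, and the I53A substitution impairs the ligase activity of Ring1b towards histones. The mutants thus lack Ring1a and carry a null and an I53A allele of Ring1b, which no group separates, while the comparison group is labelled Control without further alleles, and no driver or Cre is named. The comparison asks how follicle cells of the mutant genotype differ from controls in these genes.

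A hair grows from matrix cells at the base of the follicle, which move upward and become the inner root sheath, an envelope that moulds the hair, or the cortex, cuticle and medulla of the hair shaft. Gata3 and Cux1 act in the inner root sheath, Foxn1 (mutated in nude mice) in differentiating matrix and shaft cells, and Foxq1 (mutated in satin mice) in the medulla. Trichohyalin fills cells of the inner root sheath and medulla, where transglutaminases cross-link it.

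Expression is given as CPM, each gene's reads scaled to the size of its library. Library totals ran from 14335156 to 18811587 counts in controls and from 15661124 to 17278824 in mutants, so that 1 CPM was 14.7 to 18.2 reads, and intervals and floors given below cover counting error only. Ring1 fell from 20.01 ± 2.80 to 5.07 ± 1.94 CPM (mean ± SD, n = 3 libraries each, as for all values below; edgeR quasi-likelihood test, adjusted p = 0.0113), and Rnf2 was at 59.8 ± 6.93 and 67.1 ± 3.68 CPM. Ly6a, the gene of the sort marker Sca1, was between 0.502 and 1.49 CPM in all 6 libraries, while all 8 follicle markers examined were detected, from Tbx1 at 13.8 CPM to Sox9 at 536 CPM in controls. Of these 8, Lgr5, a marker of follicle progenitors, fell from 178 ± 37.7 to 83.7 ± 1.98 CPM (edgeR adjusted p = 0.0125), and with the replicate block Krt17 passed upward (adjusted p = 0.00366) and Shh and Edar downward (0.00560 and 0.0385). Their sum was 1560 to 2026 CPM in controls and 1470 to 2032 CPM in mutants. The 6 suprabasal interfollicular markers summed to more, 4015 to 5500 CPM in controls and 2578 to 4232 CPM in mutants. Krt1 was at 3358 ± 764 and 2126 ± 510 CPM and Krt10 at 1357 ± 142 and 982 ± 276 CPM. These 2 had a negative log2 fold change and the other 4 a positive one. None of the 6 passed in the main fit. With the replicate block Krt1 passed downward (edgeR adjusted p = 0.00154) and Krtdap upward (0.00578). The part of follicle and interfollicular cell makeup in the results below was not tested. The sorting text in the labels describes a Sca1-positive gate, and the sample labels say hair follicle. Libraries with the same replicate number in the labels deviated from their group means together, so values from a fit with that number as a block stand beside the main ones where the call differs.

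The stretch of 250 bases before the RefSeq start was held for 6 of the 9 genes (Gata3, Cux1, Foxn1, Elf5, Vdr and Tchh; GRCm38.p6). Polycomb complexes in mouse cells are found mainly at CpG-rich promoters, so 4 are shown, those of 3 of the 4 regulators that passed the test with the block and that of the structural output gene, 5′ to 3′ on the gene's strand with every CpG (letters CG) in capitals.
Gata3, chr2:9878601-9878850, minus strand: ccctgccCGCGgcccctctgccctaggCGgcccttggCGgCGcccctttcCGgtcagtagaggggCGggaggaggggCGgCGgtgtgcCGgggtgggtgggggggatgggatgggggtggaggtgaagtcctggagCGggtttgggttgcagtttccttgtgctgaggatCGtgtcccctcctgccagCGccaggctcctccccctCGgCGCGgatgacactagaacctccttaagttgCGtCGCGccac
Cux1, chr5:136565982-136566231, minus strand: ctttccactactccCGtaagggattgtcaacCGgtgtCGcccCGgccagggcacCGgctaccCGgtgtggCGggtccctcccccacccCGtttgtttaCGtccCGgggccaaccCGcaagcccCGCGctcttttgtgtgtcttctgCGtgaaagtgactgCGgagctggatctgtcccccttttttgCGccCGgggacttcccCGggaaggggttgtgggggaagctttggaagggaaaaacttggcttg
Vdr, chr15:97908297-97908546, minus strand: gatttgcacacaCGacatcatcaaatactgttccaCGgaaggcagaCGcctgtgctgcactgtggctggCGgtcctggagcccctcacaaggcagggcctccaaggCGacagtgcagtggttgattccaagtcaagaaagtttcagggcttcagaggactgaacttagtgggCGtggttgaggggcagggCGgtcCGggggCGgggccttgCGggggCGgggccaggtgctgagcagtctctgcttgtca
Tchh, chr3:93442080-93442329, plus strand: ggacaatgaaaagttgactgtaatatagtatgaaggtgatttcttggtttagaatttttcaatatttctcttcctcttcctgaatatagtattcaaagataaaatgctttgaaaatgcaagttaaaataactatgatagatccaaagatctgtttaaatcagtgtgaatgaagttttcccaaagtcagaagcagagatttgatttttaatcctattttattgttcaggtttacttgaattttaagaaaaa
The Gata3 stretch held 19 CpG, that of Cux1 18, that of Vdr 11 and that of Foxn1 7, while that of Tchh held 0. Across all 32851 promoter stretches of the table the median was 6 CpG, with quartiles of 2 and 16. Gata3 and Cux1 therefore lay above the upper quartile and Tchh among the poorest. GATAA, the core of the sites that GATA factors bind, was found on either strand once in the Tchh stretch and once in 1 of the 2 Elf5 stretches, and in 22.6% of all stretches; the letters were not in the stretches of Gata3, Cux1, Vdr and Foxn1.

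Per kilobase of exon, levels in the control libraries differed widely between members. Gata3 stood highest at 46.9 ± 9.47 CPM per kb, and Vdr (33.4 ± 9.37), Ovol1 (32.4 ± 10.7) and Cux1 (31.9 ± 6.07) followed on the same scale without differing from each other beyond their spread. The range of Gata3 in controls, 36.6 to 55.1 CPM per kb, overlapped those of Vdr and Ovol1 and lay just above the highest Cux1 library at 36.0. Foxn1 at 13.3 ± 6.60 and Trps1 at 7.05 ± 3.43 CPM per kb overlapped in range, and Tchh was at 4.59 ± 0.0602 CPM per kb, just under the lowest Trps1 library at 4.68. Foxq1 was at 0.372 ± 0.290 and Elf5 at 0.0187 ± 0.0175 CPM per kb. In mutants Gata3 stood alone at the top, at 73.6 ± 7.70 CPM per kb with no library of another member above its lowest value of 65.7. The lengths are of all annotated exons joined, which for Cux1 includes exons of its alternative product CASP, so levels of long, many-isoform genes can be understated.

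Among the 8 tested members none passed the test in the main fit, where 3.0% of the 14345 genes tested did (2.59% upward and 0.404% downward). At an unadjusted p under 0.05, Gata3 and Trps1 passed, as did 14.9% of all genes. With the replicate block 4 of the 8 passed, Gata3 and Trps1 upward and Cux1 and Vdr downward, against 9.38% of all genes (6.09% upward and 3.29% downward). Other settings called single members: Gata3 with library totals only (3.39% of all genes called), Trps1 without a filter (3.18%) and with DESeq2 (6.13%), both without control 3 (4.49%), Ovol1 without mutant 3 (2.23%), and all 3 of these without both libraries numbered 3 (5.31%). The median log2 fold change of the 8 was 0.03, with 4 above 0 and 4 below, and that of all tested genes was -0.00. For 2 members, Gata3 and Trps1, the 3 mutant libraries all lay above the 3 controls, a separation found upward in 12.1% of tested genes.

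**Figure D1:**
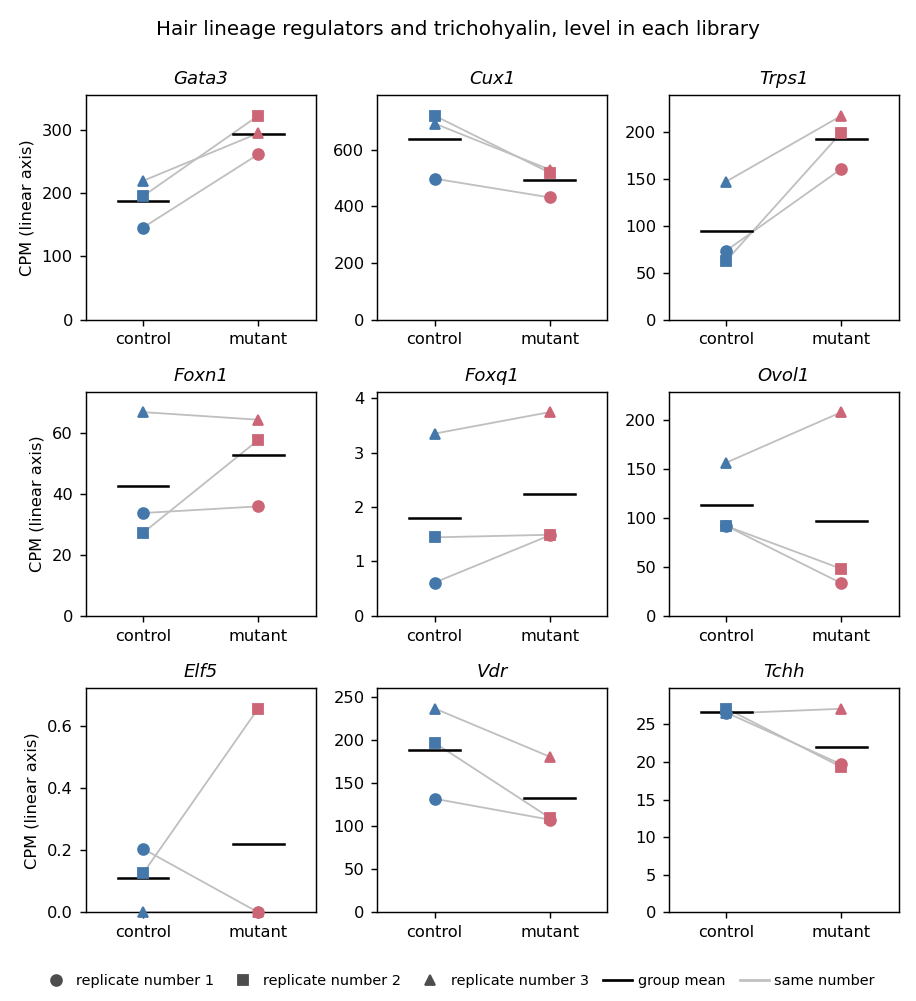
Level of each of the 9 genes in CPM (vertical axes, linear from 0) in the 3 control (blue) and 3 mutant (red) libraries; marker shape gives the replicate number, grey lines join libraries of the same number and black bars are group means. Gata3 and Trps1 are higher in every mutant library, Cux1 and Vdr are lower in the mutant of each number, and Ovol1 is highest in mutant 3 at 208 CPM.

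Gata3 (ENSMUSG00000015619.10, chromosome 2, 9857078 to 9890034, minus strand, GRCm38) encodes the zinc finger factor that in mice is needed to specify the inner root sheath. It had 2135, 3110 and 3865 reads in controls 1, 2 and 3, and 4765, 5406 and 4406 reads in mutants 1, 2 and 3, which is 145, 195 and 219 CPM against 261, 322 and 295 CPM. Every mutant library was above every control, and the lowest mutant was above the highest control. The mean went from 187 ± 37.7 to 293 ± 30.6 CPM, a ratio of 1.57 (log2 fold change 0.65, SE 0.18, edgeR adjusted p = 0.0996; with the replicate block 0.66, SE 0.11, adjusted p = 0.00653). Without control 3 alone the adjusted p was 0.0414 and the log2 fold change 0.79. Gata3 is also a factor of T cells, with 6 markers listed and 5 counted. Cd3g and Cd2 had no read in any library, Cd3e had 1 in control 1, and Cd3d had 1 in control 1 and 5 in mutant 3. The markers summed to 0.753 to 3.18 CPM in controls and 0.537 to 0.936 CPM in mutants. Ptprc made up most of this, at 1.72 ± 1.29 and 0.635 ± 0.119 CPM. The part of T cells in the Gata3 result was not tested.

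Trps1 (chromosome 15, 50654752 to 50890463, minus strand) encodes an atypical GATA-type factor that represses transcription and is mutated in human tricho-rhino-phalangeal syndrome, with sparse hair. Its level was 73.4, 62.6 and 147 CPM in controls 1, 2 and 3 and 160, 199 and 217 CPM in mutants 1, 2 and 3. The groups did not overlap, but control 3 lay close under mutant 1. The mean went from 94.3 ± 45.9 to 192 ± 28.9 CPM, a ratio of 2.04 (log2 fold change 1.03, SE 0.30, edgeR adjusted p = 0.115; with the replicate block 1.12, SE 0.18, adjusted p = 0.00656). It passed with DESeq2 (adjusted p = 0.0204), without a filter on low counts (0.0339) and without control 3 (0.00206, log2 fold change 1.51), and over all 15 alternatives its adjusted p ran from 0.000945 to 0.326. Trps1 is also expressed by dermal cells. The 6 fibroblast markers summed to 588 to 1024 CPM in controls and 655 to 923 CPM in mutants, and none of them passed. In bulk RNA such as this, a change in the number of cells of a type and a change in RNA per cell cannot be told apart.

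Cux1 (chromosome 5, 136248135 to 136567490, minus strand), the gene of a homeodomain factor whose disruption in mice disturbs the inner root sheath, had the most reads of the 9. It was at 498, 721 and 694 CPM in controls and at 432, 519 and 530 CPM in mutants 1, 2 and 3. The groups overlapped through control 1, which was below mutants 2 and 3, while within each replicate number the mutant was the lower. The ratio of means was 0.774 (log2 fold change -0.37, SE 0.18, edgeR adjusted p = 0.374; with the replicate block -0.36, SE 0.09, adjusted p = 0.0427). Vdr (chromosome 15, 97854425 to 97910630, minus strand), the nuclear receptor whose loss in mice leaves the first hair coat intact and stops later hair cycles, also had a lower mean in mutants. Its level was 132, 197 and 237 CPM in controls and 108, 110 and 181 CPM in mutants, with the highest library of each group numbered 3. The groups overlapped here too, as control 1 was below mutant 3. The ratio of means was 0.704 (log2 fold change -0.51, SE 0.26, edgeR adjusted p = 0.420; with the replicate block -0.51, SE 0.13, adjusted p = 0.0391). Both calls came with the block alone, out of all alternatives run.

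**Figure D2:**
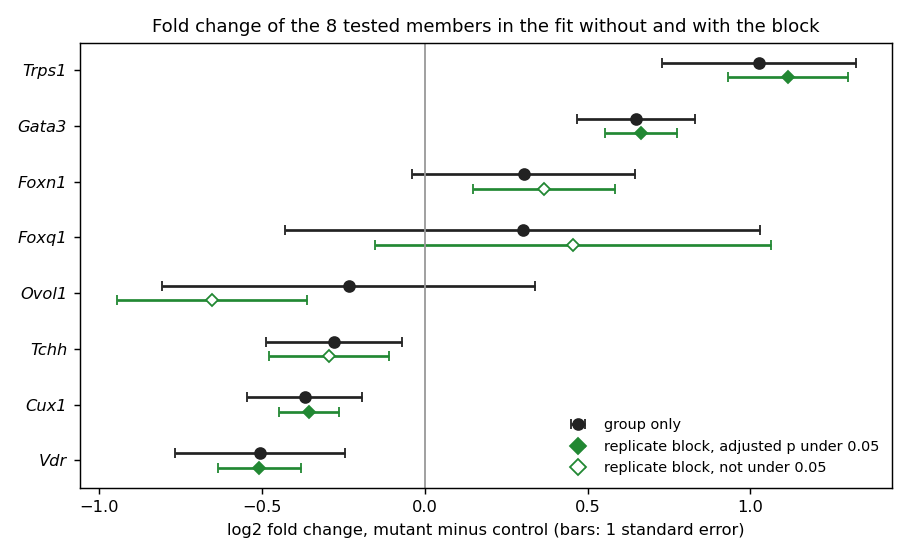
Log2 fold change, mutant minus control, of the 8 tested genes with 1 standard error, from the fit on group alone (black circles) and with the replicate number as a block (green diamonds, filled where the adjusted p was under 0.05). Estimates of Gata3, Trps1, Cux1 and Vdr hardly move between the fits while their standard errors shrink, and that of Ovol1 moves from -0.23 to -0.65.

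Ovol1 (chromosome 19, 5549136 to 5560646, minus strand) encodes a zinc finger factor that in mouse skin restrains proliferation of differentiating progenitors. It was the most uneven member, at 91.7, 91.6 and 156 CPM in controls and 33.3, 48.0 and 208 CPM in mutants 1, 2 and 3. Mutants 1 and 2 were below all controls and mutant 3 above all of them. The log2 fold change was -0.23 (SE 0.57, edgeR adjusted p = 0.908), and the block gave -0.65 (SE 0.29, adjusted p = 0.210). Without mutant 3 it was -1.48 (adjusted p = 0.0355), and without both libraries numbered 3, an alternative chosen after the values were seen, -1.17 (adjusted p = 0.00660). Leaving out control 3, mutant 1 or mutant 2 turned the sign, at 0.083, 0.18 and 0.089. Its direction therefore depended on which library was left out.

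Foxn1 (chromosome 11, 78357577 to 78386558, minus strand) did not separate the groups, at 33.7, 27.2 and 66.8 CPM in controls and 35.9, 57.7 and 64.3 CPM in mutants. The library numbered 3 was the highest in both groups (log2 fold change 0.30, SE 0.34, edgeR adjusted p = 0.769). Foxq1 (chromosome 13, 31556134 to 31560976, plus strand) was near the lower end of detection, with 9, 23 and 59 reads in controls and 27, 25 and 56 in mutants. That is 0.613 to 3.35 CPM against 1.48 to 3.74 CPM, again with number 3 highest in each group (log2 fold change 0.30, SE 0.73, edgeR adjusted p = 0.907). The spread between libraries exceeded the difference between the groups, which turned sign without control 1 (-0.11) or mutant 3 (-0.29).

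Elf5 (chromosome 2, 103411688 to 103450989, plus strand), an ETS factor best known from mammary alveoli and trophoblast, had 3, 2 and 0 reads in controls and 0, 11 and 0 reads in mutants. All 11 mutant reads were in mutant 2, where they made 0.656 CPM. A count of 0 allows up to 3 reads, or 0.164 to 0.204 CPM in these libraries, so control 1 was at the floor and control 2 under it.

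Tchh (chromosome 3, 93442330 to 93449077, plus strand), the output gene of the group, was the steadiest in controls. Its level was 26.6, 27.1 and 26.4 CPM in controls and 19.7, 19.3 and 27.1 CPM in mutants 1, 2 and 3. Mutants 1 and 2 were below every control, and mutant 3 lay within 1 CPM of all 3 controls. The log2 fold change was -0.28 (SE 0.21, edgeR adjusted p = 0.615), the block did not change the call (adjusted p = 0.381), and without mutant 3 it was -0.45.

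**Figure D3:**
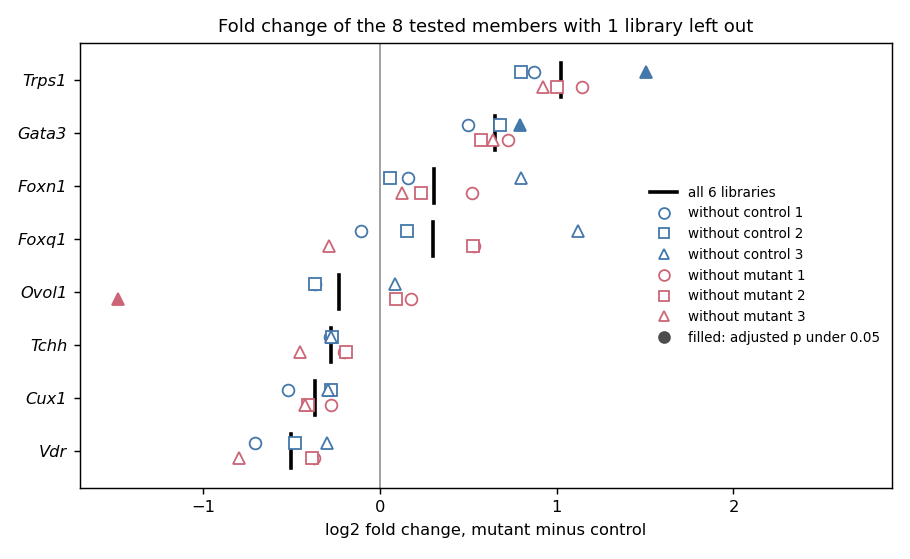
Log2 fold change, mutant minus control, of the 8 tested genes with all 6 libraries (black bars) and with 1 library left out (blue for a control, red for a mutant; shape gives its number; filled where the adjusted p was under 0.05). Gata3 and Trps1 stay above 0 and Tchh, Cux1 and Vdr below 0 in all 6 fits, while Ovol1 runs from -1.48 to 0.18 and Foxq1 from -0.29 to 1.12.

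Keratins and enzymes of the inner root sheath, medulla and companion layer showed opposite directions within their list of 16 genes, of which 11 were tested. None passed in the main fit. With the replicate block 4 of the 11 passed, Krt6a, Krt6b and Krt16 upward and Tgm3 downward. In that fit 9.38% of all genes passed (6.09% upward and 3.29% downward). The inner root sheath keratin genes tested (Krt25, Krt27, Krt28, Krt71 and Krt73) all had a negative log2 fold change, from -2.54 to -0.66, at levels of a few CPM. Krt25 was at 3.61, 7.66 and 2.38 CPM in controls and 0.713, 0.358 and 1.27 CPM in mutants, all mutants being below all controls as in 9.15% of tested genes (log2 fold change -2.54, SE 0.68, edgeR adjusted p = 0.0855). It passed with DESeq2 (0.00410), without a filter (0.0465) and without control 3 (0.0445). Krt25 passed the filter on low counts mainly through the controls, with 13, 6 and 19 reads in mutants 1, 2 and 3. Its calls and separation are therefore given as a description. Tgm3, the transglutaminase that cross-links trichohyalin, was at 35.7, 59.4 and 16.4 CPM in controls and 16.8, 20.8 and 3.74 CPM in mutants (log2 fold change -1.43, edgeR adjusted p = 0.286; with the replicate block -1.54, adjusted p = 0.00329). It was lowest in number 3 of each group, where Ovol1 was highest.

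The keratins Krt6a, Krt6b and Krt16, which mark the companion layer and are also made by stressed or activated epidermal cells, moved the other way. Krt75, a further companion layer keratin of the list, did not rise in every mutant. It was at 3.27, 4.14 and 5.51 CPM in controls and 2.63, 3.52 and 16.5 CPM in mutants 1, 2 and 3 (edgeR adjusted p = 0.644, with the replicate block 0.691). Krt6a was at 3.20, 2.07 and 16.9 CPM in controls and 23.0, 40.4 and 400 CPM in mutants 1, 2 and 3 (log2 fold change 4.37, edgeR adjusted p = 0.0822; with the replicate block 4.0, adjusted p = 0.000178). Mutant 3, the library with the highest Ovol1, had by far the highest Krt6a. Krt16 was at 22.6, 15.9 and 76.3 CPM in controls and 63.2, 76.6 and 260 CPM in mutants (edgeR adjusted p = 0.218; with the replicate block 0.000304). Without mutant 3 the log2 fold change of Krt16 was 0.86 in place of 1.80. That of Krt6a was 2.08 without mutant 3 (edgeR adjusted p = 0.229). Without control 3, Krt6a, Krt6b and Krt16 passed (edgeR adjusted p = 0.0219, 0.0253 and 0.0179), and they passed without both libraries numbered 3 (0.000382, 0.0356 and 0.000830). Whether the state of the number 3 libraries bears on the levels of Ovol1, Foxn1, Foxq1 and Vdr there was not tested. Reads of Krt6a and Krt6b, near-identical copies, may be shared between them. Krt6b passed the filter on low counts mainly through the mutants, with 20, 0 and 50 reads in controls 1, 2 and 3. Its calls are therefore given as a description.

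**Figure D4:**
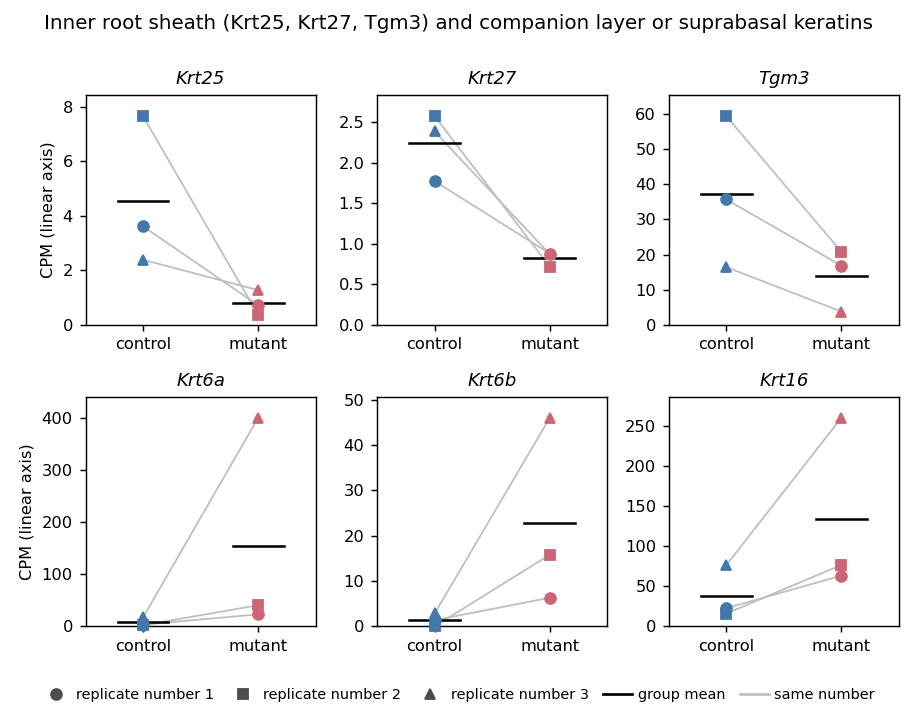
Level in CPM (vertical axes, linear from 0) of 3 inner root sheath genes (top) and 3 companion layer keratin genes (bottom) in the control (blue) and mutant (red) libraries; marker shape gives the replicate number, grey lines join the same number and black bars are group means. Krt25 and Krt27 are lower in every mutant library, and the means of Krt6a, Krt6b and Krt16 in mutants are raised by mutant 3.

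Hair shaft genes were barely transcribed in either group. Of 26 listed, 6 were tested and 6 had no read in any library. The cuticle and cortex keratin gene Krt85 passed, with 2 reads in controls and 80 in mutants, a ratio of 38.6 in CPM (exact 95% interval from the counts 10.3 to 324; edgeR adjusted p = 0.0309). It passed the filter on low counts through the mutant libraries alone and was dropped by the stricter filter, so its call is given as a description. It did not pass in any of the 6 fits with 1 library left out (up to 0.159, without mutant 1). Krt87 was at 0, 0 and 0.568 CPM in controls and 3.23, 1.25 and 2.54 CPM in mutants (edgeR adjusted p = 0.172). Krt35, a keratin of the early cortex and cuticle, was at 2.38, 0.941 and 5.85 CPM in controls and 0.164, 0.0596 and 1.54 CPM in mutants (edgeR adjusted p = 0.342; with the replicate block 0.0439). Krt87 also passed the filter on low counts through the mutant libraries alone. Krt35 passed it mainly through the controls, with 3, 1 and 23 reads in mutants 1, 2 and 3. The values of both are therefore given as a description too. Related hair keratins may share reads.

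Of 17 other regulators of the hair lineage 14 were tested, and 1 passed, Runx3, a runt-domain factor of follicle and immune cells. In that main fit 3.0% of all tested genes passed (2.59% upward). Runx3 (chromosome 4, 135120652 to 135177990, plus strand) rose from 2.38, 1.44 and 2.50 CPM in controls to 23.9, 30.5 and 28.0 CPM in mutants (log2 fold change 3.70, SE 0.30, edgeR adjusted p = 0.000411). It passed in all 15 alternatives, with a log2 fold change of 3.48 to 3.85. Runx3 is also a factor of Langerhans cells, whose marker Cd207 had no read in the mutants and whose summed markers were at 15.8 to 67.1 CPM in controls and 26.5 to 43.2 CPM in mutants. Of the 5 Langerhans markers 3 were tested, and H2-Ab1 rose from 4.95 ± 2.93 to 20.4 ± 4.39 CPM (edgeR adjusted p = 0.0476). The other 2 tested had lower means in mutants without passing, Cd74 at 28.1 ± 20.4 and 14.6 ± 5.03 CPM and H2-Aa at 3.71 ± 2.50 and 1.6 ± 0.637 CPM, and Cd86, too low to test, was lower in every mutant library (means of 1.03 and 0.197 CPM). The part of these cells in the Runx3 result was not tested. Sox21, a factor of the hair cuticle in mice, was at 128, 177 and 81.9 CPM in controls and 71.0, 107 and 42.2 CPM in mutants (log2 fold change -0.81, edgeR adjusted p = 0.316; with the replicate block -0.84, adjusted p = 0.00269). Msx2, a homeobox factor of the matrix that acts upstream of Foxn1 in mice, was at 14.3 ± 2.57 and 23.2 ± 7.26 CPM (adjusted p = 0.278 by edgeR), and Bcl11b and Prdm1 were at 648 and 92.3 CPM in controls against 537 and 78.4 CPM in mutants without passing. Hoxc13, which regulates Foxq1 and Foxn1 in mice, was at 16.7 to 26.0 CPM in controls and 22.6 to 27.8 CPM in mutants (edgeR adjusted p = 0.834). The list as a whole had a median log2 fold change of 0.03, with 7 genes above 0 and 7 below.

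**Figure D5:**
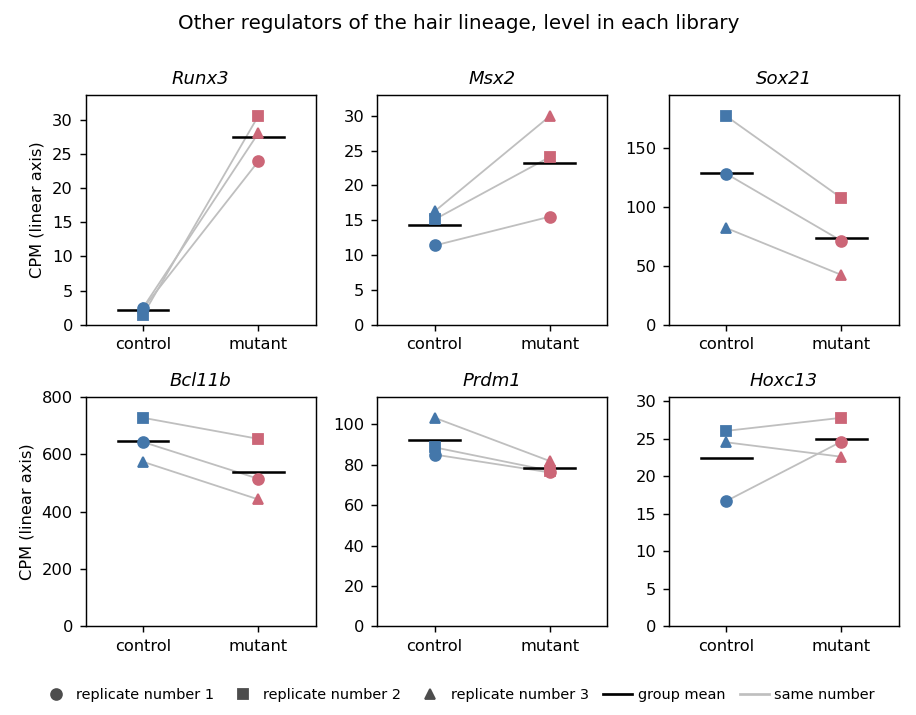
Level in CPM (vertical axes, linear from 0) of 6 other hair lineage regulators in the control (blue) and mutant (red) libraries; marker shape gives the replicate number, grey lines join the same number and black bars are group means. Runx3 stands apart, from at most 2.50 CPM in controls to at least 23.9 CPM in mutants, and Sox21 is lower in the mutant of each number.

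Partners and targets of the vitamin D receptor gave no call in the main fit among the 11 tested of 14 listed, with a median log2 fold change of -0.25 and 7 of 11 below 0. Among all tested genes 7213 of 14345 were below 0. Its dimer partner Rxra was at 661 ± 140 and 673 ± 90.9 CPM, and Hr, the hairless corepressor that acts with Vdr in mouse hair cycling, at 303 ± 91.0 and 363 ± 83.3 CPM. Trpv6, a calcium channel gene induced by the receptor in intestine, was at 26.4, 24.5 and 17.6 CPM in controls and 17.1, 17.1 and 7.29 CPM in mutants (edgeR adjusted p = 0.360, and 0.0533 with the replicate block). All its mutant values were below every control, as in 9.15% of tested genes. The coactivator genes Ncoa1 and Ncoa3 were at 193 and 130 CPM in controls and 158 and 106 CPM in mutants, without passing in either fit. Cyp24a1, the classical target that inactivates vitamin D, was too low to test, at 0.523 and 0.287 CPM.

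Family relatives of the members did not pass either, in the main fit or with the block, among 14 tested of 22 listed. The other GATA genes were low: Gata2 was at 1.52 ± 2.47 and 0.858 ± 0.817 CPM and Gata6 at 2.85 ± 2.29 and 6.76 ± 3.36 CPM (log2 fold change 1.25, edgeR adjusted p = 0.399). Ovol2 was at 2.30 ± 1.41 and 2.41 ± 1.53 CPM, far under Ovol1. Ehf, an ETS relative of Elf5 in epithelia, was at 9.24 ± 4.04 and 3.99 ± 2.14 CPM (edgeR adjusted p = 0.316). Among the relatives of Tchh in the family of fused S100 proteins, Flg2 was at 3.34, 3.70 and 1.19 CPM in controls and 0.767, 0.358 and 0.602 CPM in mutants (log2 fold change -2.23, edgeR adjusted p = 0.140, and 0.0360 with DESeq2). Flg2 passed the filter on low counts mainly through the controls, with 14, 6 and 9 reads in mutants 1, 2 and 3. Its values are therefore given as a description. Hrnr was at 5.27 ± 1.32 and 9.56 ± 2.86 CPM (edgeR adjusted p = 0.299).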

How the data were processed

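RNA of sorted cells (10 ng of total RNA per library) was amplified and sequenced as single reads of 100 nucleotides, per the labels' protocols. The deposited files hold raw whole-number counts per gene symbol, 1 file per library. The submitters' processing notes name mm10 and, without roles, DESeq2 1.6.3, HTSeq 0.6.1, Cufflinks 2.2.1 and TopHat2 2.0.13. The annotation release and strand setting are not stated there, so reads of overlapping antisense genes may be mixed.

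CPM stands for counts scaled to TMM-adjusted library size. Counts were tested with edgeR 4.0.16 (R 4.3.3), quasi-likelihood F test, TMM factors, filterByExpr, group as the only term, two-sided, with Benjamini-Hochberg adjustment over all 14345 tested genes and a threshold of 0.05, after a check on simulated data. Alternatives used DESeq2 1.42.0, limma 3.58.1 (voom), other scalings and filters, 1 library left out, and the replicate number as a block. Across genes, control and mutant libraries sharing a number had deviations (log2 CPM minus group mean) correlated at 0.168 to 0.363, and other control-mutant pairs at -0.252 to 0.0891. The pairing thus comes from the data, with no shared litter or day in the labels, and deviations in a group sum to 0, so it is uncertain. The labels do not say that libraries came from separate animals, so p-values measure the spread between libraries. Positions and exon lengths are from GENCODE M21 (GRCm38).

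The members, lists and tests were chosen with earlier results of these data known. Named are all members, called list genes and the list genes with the smallest p (up to 4 per list). Tgm3, Krt27, Krt28, Krt71, Krt73, Krt75, Hoxc13, Rxra, Hr, Cyp24a1, Gata2 and Ovol2 were added after their values were seen. No called member was left for the search for genes of similar pattern, and promoter sequences were matched by symbol. The values of 1 list gene are not reported here.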

Additional observations from a re-analysis of the deposited data

How the results depend on the processing

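The number of all genes called was 430 in the fit on group alone, 964 with DESeq2, 1345 with the replicate block, 772 without both libraries numbered 3 and 163 to 664 with 1 library left out. The number of members called was 0, against 1 with library totals only (Gata3), 1 without a filter and 1 with DESeq2 (Trps1 in both), 4 with the replicate block, 3 without both libraries numbered 3 (Gata3, Trps1 and Ovol1) and 0 to 2 with 1 library left out. The list of sheath and companion layer genes gave 0, against 1, 3, 2, 4 and 5 with library totals, no filter, DESeq2, the replicate block and without both number 3 libraries, and 0 to 4 with 1 library left out. The shaft list gave 1, against 0 with the stricter filter, 2 with DESeq2, the block or without both number 3 libraries, and 0 to 1 with 1 library left out. The other regulators gave 1 (2 with the block), the receptor partners 0 (1 with the block) and the family relatives 0 (1 with DESeq2). With 1 library left out, Foxq1 ran from -0.29 to 1.12 (below 0 without control 1 or mutant 3) and Ovol1 from -1.48 to 0.18 (above 0 without control 3, mutant 1 or mutant 2); the cause was not tested. The block changed the calls of Gata3, Trps1, Cux1 and Vdr and of no other member. Scaling moved the median of all genes by under 0.1 on the log2 scale. Elf5 had too few reads to test at this depth.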

Other observations

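A pair of transcripts with counts of their own lie within the span of Gata3. 4930412O13Rik, on the opposite strand with no shared exon, was at 29.6, 26.0 and 26.2 CPM in controls and 62.1, 56.2 and 29.1 CPM in mutants 1, 2 and 3 (edgeR adjusted p = 0.157; with the replicate block 0.0496). 9230102O04Rik, on the same strand with up to 77 exon bases shared with Gata3, was at 0.545, 1.44 and 0.681 CPM in controls and 3.18, 2.56 and 3.81 CPM in mutants (edgeR adjusted p = 0.171). All mutants were above all controls, as in 12.1% of tested genes. It passed the filter on low counts mainly through the mutants, with 8, 23 and 12 reads in controls 1, 2 and 3. Its values are therefore given as a description. Over the 6 libraries 4930412O13Rik and 9230102O04Rik had 3821 and 201 reads, against 9110 reads of Gata3 in controls and 14577 in mutants.

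Foxq1 lies under an annotated transcript of the opposite strand, A530084C06Rik, over 3200 of its bases, and Ovol1 overlaps Gm31166 by 690 exon bases. Gata3 shares up to 93 exon bases with the antisense transcript Gm13256, Cux1 up to 394 with Gm16599 and Ovol1 up to 76 with AC126029.1. None of these neighbours is among the counted symbols, and reads of these pairs cannot be told apart without a strand setting.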
